A study of Rattus norvegicus with 12 samples.

Results

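The genes described here are 34 genes of fatty acid and ketone body oxidation, named by their symbols: the carnitine shuttle, the enzymes of mitochondrial beta-oxidation, electron transfer, the thioesterases and malonyl-CoA decarboxylase, both uncoupling proteins, a pair of regulators and the enzymes of ketone body use. They were found by symbol in the deposited gene table, which has 32735 rows. A row was present for 33 of them, and Acaa1a (the peroxisomal thiolase) had no row under that symbol. The filter on low values kept 29 of the 33 and 7511 genes in all. The study compared the left ventricle of 6 rats after repeated social defeat (RSD) with that of 6 unhandled control rats (CTR), and asked how defeat alters cardiac gene expression. Animals of both groups were adult wild-type Groningen rats, which the series' design gives as males. The RSD rats met a resident rat in defeat sessions on 8 consecutive days. Punches of frozen left ventricle gave total RNA, from 100 ng of which 3′ end libraries were made, 1 library a rat. The sources used here do not give the hour of collection, the time from the last session or the feeding state.

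The heart takes most of its energy from fatty acids. They are activated to acyl-CoA, carried into mitochondria as carnitine esters, and shortened in repeated rounds of dehydrogenation, hydration, a second oxidation and thiolysis. The electrons of the first dehydrogenation pass through electron transfer flavoprotein to the respiratory chain. Malonyl-CoA blocks the entry step, and the nuclear receptor encoded by Ppara with the coactivator encoded by Ppargc1a drives transcription of much of the pathway. Ketone bodies made in the liver are taken up and burned in heart mitochondria.

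Values are CPM (reads scaled so that each library has one common total), divided by a library scaling factor and called normalised CPM. Reads come from the 3′ end of transcripts and were not divided by length, so levels were compared between libraries for 1 gene and not between genes. The libraries held 2062799 to 3731118 reads, so 1 read was worth 0.268 to 0.485 CPM. The mitochondrial genome took 54.8% ± 3.08 of reads in RSD and 53.6% ± 2.74 in CTR (SD, n = 6 each, exact permutation p = 0.5). Its most abundant row took 23.2% ± 2.32 in RSD and 19.9% ± 2.80 in CTR (exact permutation p = 0.0541, adjusted 0.186 over 11 library measures). One library, RSD 40, is labelled female; its reads of the Y-linked genes Eif2s3y and Kdm5d numbered 24 and 35, against 8 to 33 and 7 to 34 in the other 11, so the reads go against that label. Cardiomyocyte markers were abundant in every library, at summed levels of 38142 to 43094 normalised CPM in RSD and 39080 to 44256 in CTR, with 9 of 10 listed genes in the table. Adipocyte markers, which could bring in lipid genes, summed to 143.7 to 167 normalised CPM in RSD and 143.7 to 209.5 in CTR, of which Fabp4, also an endothelial gene, made up 142 normalised CPM in the RSD mean and 167 in the CTR mean. Plin1, Lep and Ucp1 were at 0 in all libraries. Adipoq had 4 reads in RSD 33, Retn 2 in RSD 35 and Cidec 2 in RSD 38, against 0 in CTR for each. Liver markers summed to 6.73 to 14.4 normalised CPM in RSD and 9.58 to 20.4 in CTR (exact permutation p = 0.0173, adjusted 0.186). Most of that sum was Ttr, at 8.56 ± 2.803 in RSD and 15.3 ± 4.51 in CTR, while Alb had 7 reads over 3 RSD libraries and 0 in CTR, and Cps1 was at 0 in all. Summed markers of fibroblasts, endothelial cells, smooth muscle cells, macrophages and red blood cells also overlapped between groups (exact permutation p adjusted over the measures 0.186 to 0.392). Of their single markers, limma's unadjusted p was under 0.05 for 2 of 7 endothelial ones (Tek and Eng, higher in RSD). It was also for 1 of 6 fibroblast (Col3a1), 1 of 6 smooth muscle (Mcam) and 1 of 8 macrophage markers (Fcer1g), each lower. Of 5 red blood cell markers, 1 (Ahsp) was higher. The share over all tested genes was 8.36%, and 0 of these markers passed after adjustment. The part of any of these measures or cell types in the results was not tested.

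Hadha and Hadhb encode the alpha and beta subunits of the mitochondrial trifunctional protein, which carries out the steps after dehydrogenation on long chains. They are neighbours in the RefSeq table, and their sequences are shown because one stretch lies before both starts. On GRCr8 the starts lie 301 bases apart on opposite strands. The 250 bases before each start, 5′ to 3′ on the strand of its gene, are chr6:31907551-31907800 (plus) for Hadha and chr6:31907501-31907750 (minus) for Hadhb; capitals mark the 200 bases that both hold, each as the reverse complement of the other.
Hadha: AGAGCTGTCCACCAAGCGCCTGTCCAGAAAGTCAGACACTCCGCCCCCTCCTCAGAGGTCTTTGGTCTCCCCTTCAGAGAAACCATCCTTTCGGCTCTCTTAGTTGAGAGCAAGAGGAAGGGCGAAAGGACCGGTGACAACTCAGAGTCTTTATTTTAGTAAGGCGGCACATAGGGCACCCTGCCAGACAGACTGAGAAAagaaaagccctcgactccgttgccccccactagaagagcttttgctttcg
Hadhb: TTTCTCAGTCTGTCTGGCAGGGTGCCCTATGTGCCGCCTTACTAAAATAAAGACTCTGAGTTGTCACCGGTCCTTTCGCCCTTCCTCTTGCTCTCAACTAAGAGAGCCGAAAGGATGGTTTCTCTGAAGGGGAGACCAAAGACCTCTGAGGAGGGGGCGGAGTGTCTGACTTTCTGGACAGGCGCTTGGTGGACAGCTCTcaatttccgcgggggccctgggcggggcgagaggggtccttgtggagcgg
RefSeq windows of 250 bases before to 50 after a start were found for 29 of the 34 genes. The binding element of PPAR and its partner receptor is a direct repeat of AGGTCA with 1 base between (AGGTCANAGGTCA). Searched on both strands, it was in 0 of these 29 windows and in 0.0538% of all 33469 windows. The single AGGTCA was in 5 (17.2%), those of Ucp3, Hadhb, Eci1, Acadvl and Eci2, and in 16.2% of all windows; the bases printed above hold 0, since that of Hadhb lies outside them. A match describes letters and not a site. The exact repeat is so rare in all windows that 0 of 29 says nothing about these genes. Looser forms and bases outside the windows were not searched.

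No difference in messenger RNA between RSD and CTR hearts was detected for these genes. Of the 29 tested genes, 0 passed limma's adjusted p of 0.05, against 2 of 7511 genes in all (0.0266%). The counts from edgeR and DESeq2 on recovered reads and from limma-voom were also 0, beside 2, 2 and 3 of all 7511 genes. At unadjusted p under 0.05 there were 3 (10.3%): Ucp3 was higher, and Decr1 and Acot2 lower, in RSD. Over all tested genes the share was 8.36%, with 3.89% higher and 4.47% lower, so that the count of 3 stood near the background. It was 6 without CTR 22 (Decr1, Acot2, Cpt1b and Acaa2 lower, Hadh and Ucp3 higher), where the share over all tested genes was 12.95%. Without CTR 24 it was 1 (Decr1), beside 5.88% of all tested genes. Without RSD 40, whose label is in doubt, it was 3 (Decr1, Mlycd and Ucp3) beside 8.92%, with 0 past the adjusted threshold. The groups did not overlap for 0 of the 29 and for 0.293% of all tested genes. Fold changes lay above 0 for 15 genes and below 0 for 14, with a median log2 fold change of 0.01, against 0.00 over all tested genes. The 95% interval of the difference stayed within 0.5 on the log2 scale for 22 of the 29. Each fold change is RSD over CTR on the log2(normalised CPM + 1) scale, which understates the change of low genes. In punches of whole tissue, fewer cells of a type and less RNA per cell cannot be told apart.

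**Figure D1:**
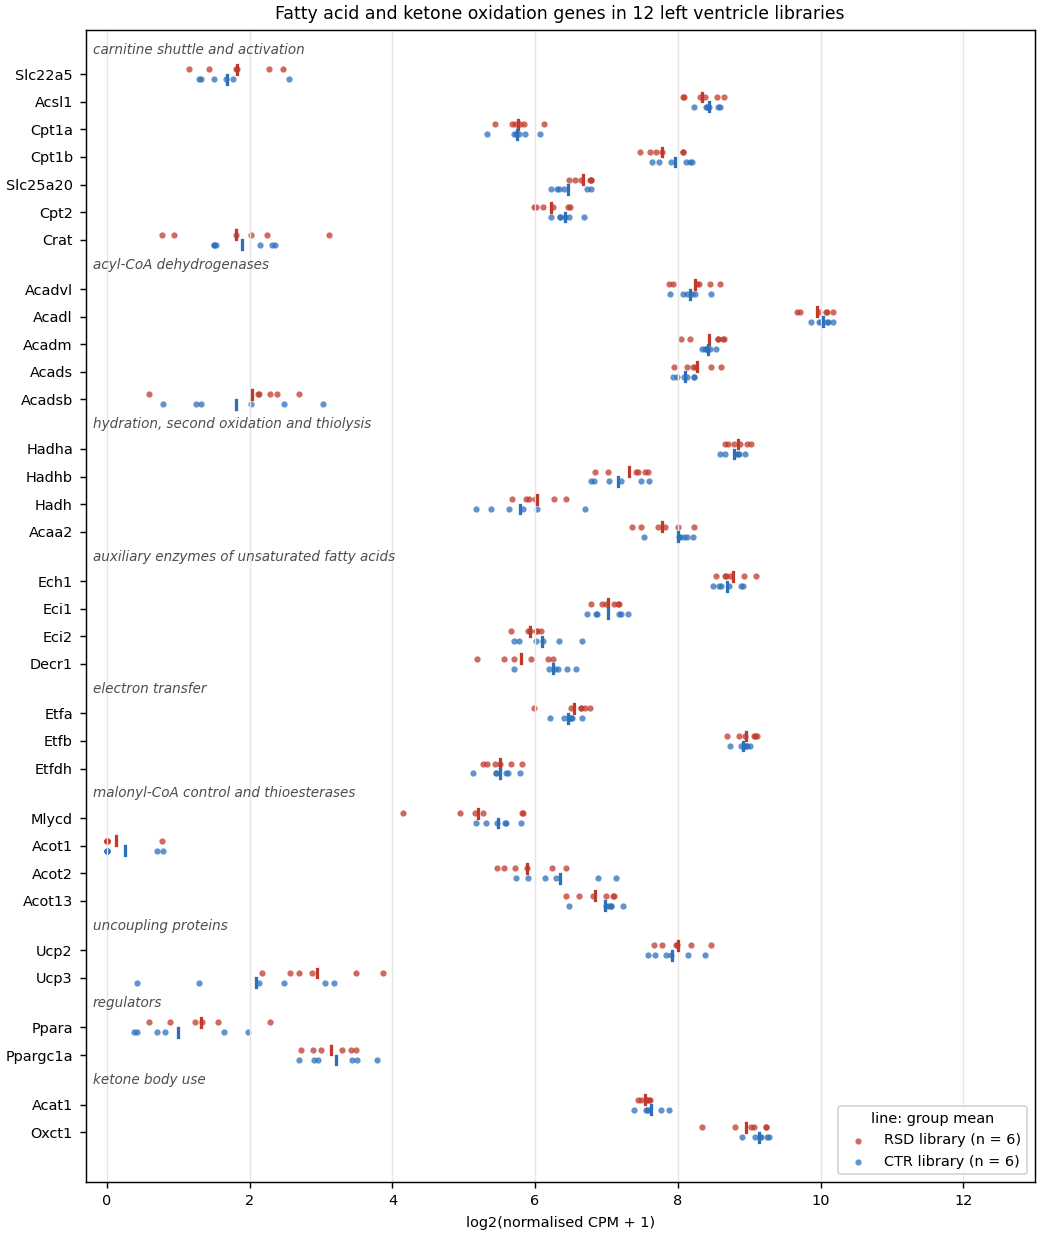
Levels of the 33 genes with a row, as log2(normalised CPM + 1), in each of the 12 libraries (RSD above, CTR below; vertical line: group mean, n = 6 each), grouped by role. For each of the 29 tested genes the points of RSD and CTR overlap.

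**Figure D2:**
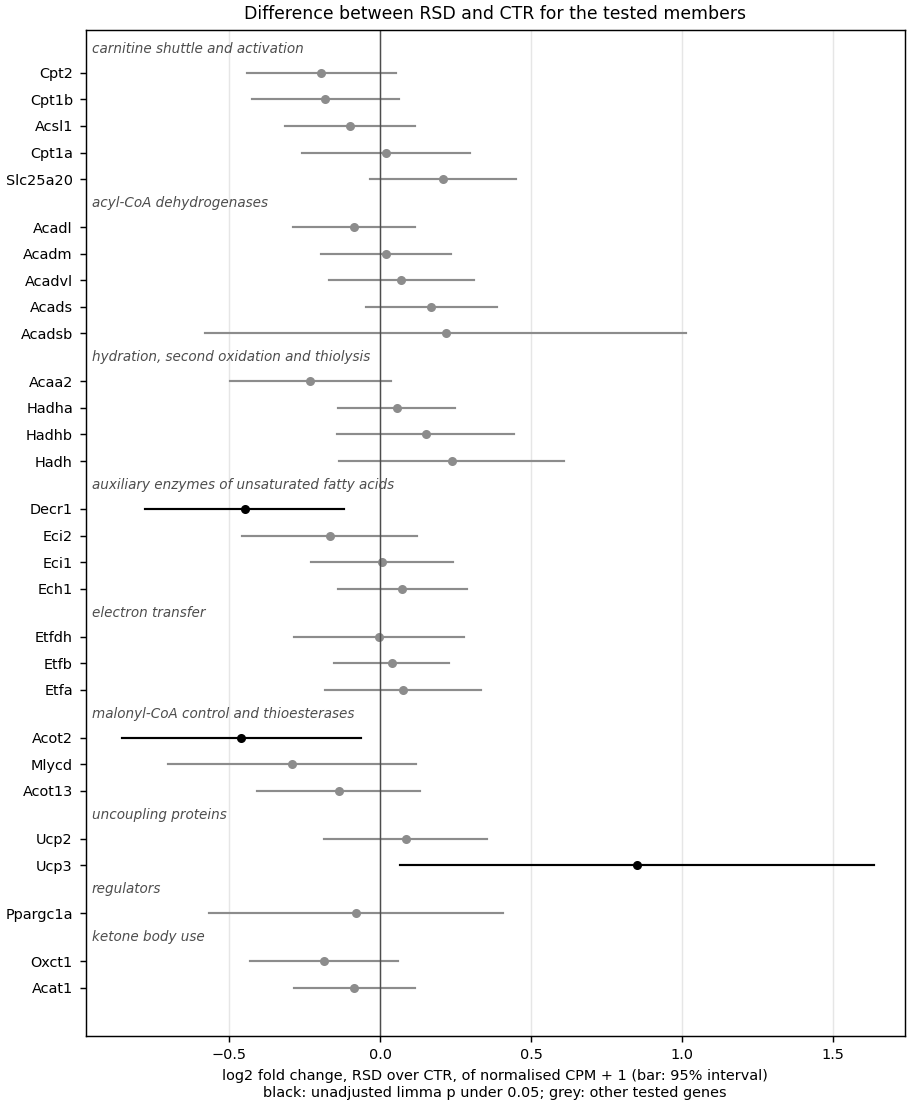
Log2 fold change, RSD over CTR, of the 29 tested genes with its 95% interval from limma, grouped by role. Ucp3, Decr1 and Acot2, in black, have an unadjusted p under 0.05, and 0 genes pass after adjustment over all 7511 genes.

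The entry step gave differences of either sign, none past the test. Cpt1b, the muscle form of carnitine palmitoyltransferase that makes the carnitine ester at the outer membrane, had a lowest, median and highest level of 177, 212 and 269 normalised CPM in RSD and 198, 258 and 294 in CTR. Its group means were 222 ± 38.1 in RSD and 251 ± 40.8 in CTR (SD, n = 6 each), and its log2 fold change was −0.18 (SE 0.12, 95% interval −0.42 to 0.06), with limma adjusted p = 0.712. Cpt1b lay below the CTR mean in 4 of 6 RSD libraries, and 2 of them (RSD 33 and RSD 38) were below all CTR libraries. Cpt1a, the liver form of the same enzyme, had 42.5, 52.9 and 68.7 normalised CPM in RSD and 39.1, 53.2 and 65.9 in CTR as lowest, median and highest. The log2 fold change of Cpt1a was 0.02 (SE 0.14, 95% interval −0.26 to 0.30), and its groups overlapped almost fully. Reads of Cpt1a made up 19.7% ± 3.37 of the reads of both forms in RSD and 17.9% ± 4.66 in CTR (SD, n = 6 each), ranging over 16.9% to 26.2% in RSD and 11.7% to 25% in CTR. This share does not depend on library scaling and is not per length, and its groups overlapped.

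The translocase Slc25a20, which carries acylcarnitines across the inner membrane, had 88.3, 103 and 109.6 normalised CPM in RSD and 73.7, 81.6 and 109 in CTR (lowest, median and highest). Slc25a20 averaged 101 ± 9.08 in RSD and 88.2 ± 15.04 in CTR (SD, n = 6 each), with a log2 fold change of 0.21 (SE 0.12, 95% interval −0.03 to 0.45) and a limma adjusted p of 0.664. It lay above the CTR mean in 6 of 6 RSD libraries, but 2 of the CTR libraries (CTR 23 and CTR 27) lay within the RSD range. Cpt2, the inner-membrane partner of Cpt1 that re-forms acyl-CoA, had 62.2, 71.7 and 89.1 normalised CPM in RSD and 73.4, 82.5 and 102 in CTR. Its log2 fold change was −0.19 (SE 0.12, 95% interval −0.44 to 0.05) with a limma adjusted p of 0.694, and 3 RSD libraries (RSD 33, RSD 38 and RSD 39) were below all CTR libraries. Acsl1, the main acyl-CoA synthetase of heart, averaged 327 ± 52.97 normalised CPM in RSD and 347 ± 31.3 in CTR (SD, n = 6 each), and its log2 fold change was −0.10. Another pair of shuttle genes was too low to test: Slc22a5, the plasma membrane carnitine transporter, and Crat, carnitine acetyltransferase. Slc22a5 had 4 to 13 reads a library in RSD and 4 to 16 in CTR, and Crat had 2 to 18 in RSD and 5 to 13 in CTR.

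Among the acyl-CoA dehydrogenases, which open each round and differ in the chain length they take, 0 of 5 reached an unadjusted p under 0.05. Acads, for short chains, had the smallest p: its lowest, median and highest levels were 245, 299 and 388 normalised CPM in RSD and 243, 274 and 298 in CTR. Acads averaged 310.4 ± 51.8 in RSD and 273 ± 22.7 in CTR (SD, n = 6 each), with a log2 fold change of 0.17 (SE 0.11, 95% interval −0.05 to 0.39) and a limma adjusted p of 0.694. For Acads, 5 of 6 RSD libraries lay above the CTR mean and 3 above the highest CTR library. Acadl, for long chains, averaged 996 ± 141 normalised CPM in RSD and 1052 ± 78.3 in CTR. Acadvl, for very long chains, averaged 306 ± 57.8 in RSD and 288 ± 38.1 in CTR. Acadm, for medium chains, averaged 351 ± 59.9 in RSD and 342 ± 15.9 in CTR. Its RSD libraries were the more scattered: 2 were below all CTR libraries and 4 above the highest. The log2 fold changes were −0.09 (Acadl), 0.07 (Acadvl) and 0.02 (Acadm). Acadsb, which acts on short branched chains from isoleucine, was near the low end of what was tested, at 0.501 to 5.44 normalised CPM in RSD and 0.728 to 7.12 in CTR, and the 95% interval of its log2 fold change, −0.58 to 1.01, was the widest of the 29.

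The genes of hydration, the second oxidation and thiolysis had log2 fold changes from −0.23 to 0.24. Hadha had 405, 454 and 520.1 normalised CPM in RSD and 385, 453 and 490.5 in CTR as lowest, median and highest, with a log2 fold change of 0.05 (SE 0.09, 95% interval −0.14 to 0.25). Hadhb averaged 160.4 ± 31.5 normalised CPM in RSD and 145 ± 34.5 in CTR (SD, n = 6 each), and its log2 fold change was 0.15. Hadh, the dehydrogenase for shorter chains, averaged 65.2 ± 12.9 in RSD and 57.9 ± 24.5 in CTR, a log2 fold change of 0.24; its CTR libraries ran over 35.2 to 103 normalised CPM and enclosed all 6 RSD libraries. Leaving out 1 library gave 0.11 (without CTR 23) to 0.42 (without CTR 22) for Hadh. Acaa2, the mitochondrial thiolase that releases acetyl-CoA, was lower in the mean, with 163, 218 and 299.7 normalised CPM in RSD and 184, 266 and 296 in CTR. Acaa2 averaged 222 ± 50.5 in RSD and 258 ± 38.9 in CTR, a log2 fold change of −0.23 (SE 0.13, 95% interval −0.50 to 0.04), with limma adjusted p = 0.664. The lowest CTR library for Acaa2 was CTR 22, at 183.9 normalised CPM, far from the next at 257.4, and the RSD libraries reached from below to above the CTR range.

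The auxiliary enzymes, which let double bonds of unsaturated fatty acids enter the cycle, held the gene with the smallest p. Decr1 (ENSRNOG00000008236.6), the mitochondrial dienoyl-CoA reductase, had 35.4, 71.4, 75.1, 46.3, 60.4 and 51.4 normalised CPM in RSD 33, 34, 35, 38, 39 and 40. In CTR 22 to CTR 27 it had 51.1, 94.1, 71.9, 77.02, 86.2 and 79.1. All 6 RSD libraries lay below the CTR mean, RSD 33 and RSD 38 also below the lowest CTR library (CTR 22), and 4 overlapped the CTR range. The means were 56.7 ± 15.2 in RSD and 76.6 ± 14.7 in CTR (SD, n = 6 each). The log2 fold change of Decr1 was −0.45 (SE 0.16, 95% interval −0.78 to −0.12), with an unadjusted p of 0.00951 and limma adjusted p = 0.461. With that mitochondrial row's share of reads in the model, the value for Decr1 was −0.27, and with 1 surrogate variable −0.18; the unadjusted p was not under 0.05 in either, and it was in the other 24 of 26 settings. Ech1, a dienoyl-CoA isomerase, averaged 439 ± 63.7 normalised CPM in RSD and 416 ± 50.7 in CTR. The enoyl-CoA isomerase Eci1 averaged 130.2 ± 13.6 in RSD and 130.5 ± 21.1 in CTR. Its relative Eci2 averaged 60.4 ± 6.09 in RSD and 69.5 ± 18.1 in CTR. Their log2 fold changes were 0.07 (Ech1), 0.01 (Eci1) and −0.17 (Eci2). For Eci2, 6 of 6 RSD libraries lay below the CTR mean, and 1 below the lowest CTR library.

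The genes of electron transfer had log2 fold changes between −0.00 and 0.08. Etfa, a subunit of electron transfer flavoprotein, averaged 93.4 ± 16.5 normalised CPM in RSD and 87.6 ± 8.99 in CTR (SD, n = 6 each). The other subunit, Etfb, averaged 499 ± 54.1 in RSD and 484 ± 32.2 in CTR. Etfdh, which hands the electrons to ubiquinone, averaged 44.8 ± 6.85 in RSD and 44.9 ± 6.83 in CTR. The log2 fold changes were 0.08 for Etfa, 0.04 for Etfb and −0.00 for Etfdh. Their 95% intervals together ran from −0.28 to 0.33.

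Malonyl-CoA decarboxylase, which removes the inhibitor of the entry step, and the thioesterases, which split acyl-CoA, had values below 0 in 3 of 3 tested genes. Acot2 (ENSRNOG00000010134.5), the mitochondrial thioesterase, had 51.6, 85.8, 74.7, 43.1, 58.4 and 46.5 normalised CPM in RSD 33, 34, 35, 38, 39 and 40. In CTR 22 to CTR 27 it had 52.3, 77.6, 139, 58.8, 117 and 69.2. CTR 24 and CTR 26 were far above the rest, RSD 33, RSD 38 and RSD 40 were below all CTR libraries, and the other RSD libraries overlapped the CTR range. The means of Acot2 were 60.02 ± 16.9 in RSD and 85.6 ± 34.6 in CTR (SD, n = 6 each), and its log2 fold change was −0.46 (SE 0.19, 95% interval −0.85 to −0.06), with an unadjusted p of 0.0248 and limma adjusted p = 0.517. The unadjusted p for Acot2 was no longer under 0.05 in 7 of 26 other settings. These were DESeq2, the model with the mitochondrial row (−0.27), that with a surrogate variable (−0.22), and the fits without CTR 24 (−0.30), CTR 26 (−0.35), RSD 38 (−0.37) or RSD 40 (−0.39). Acot1, the cytosolic neighbour of Acot2 and close to it in sequence, had at most 2 reads in a library and was not tested. Reads of sequence common to the pair could be left out or placed in the wrong gene, so both levels are uncertain. Mlycd ran over 16.7, 36.2 and 55.98 normalised CPM in RSD and 34.99, 44.98 and 54.8 in CTR as lowest, median and highest. Its log2 fold change was −0.29 (SE 0.20, 95% interval −0.70 to 0.12) with a limma adjusted p of 0.726. Leaving out 1 library gave −0.42 (without RSD 40) to −0.08 (without RSD 33), and the unadjusted p was under 0.05 without RSD 34 or RSD 40. For Mlycd, 3 RSD libraries were below all CTR libraries and 2 above the highest. Acot13, another mitochondrial thioesterase, averaged 115 ± 21.4 normalised CPM in RSD and 127 ± 20.7 in CTR, a log2 fold change of −0.14.

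The uncoupling proteins are carriers of the inner mitochondrial membrane, and Ucp3 is the form of muscle and heart whose transcript follows fatty acid supply. Ucp3 (ENSRNOG00000017716.5) was low, with 1 to 37 reads a library. It had 13.7, 10.2, 6.36, 3.504, 5.44 and 4.89 normalised CPM in RSD 33, 34, 35, 38, 39 and 40, against 8.05, 3.37, 1.46, 4.56, 7.31 and 0.339 in CTR 22 to CTR 27. RSD 33 and RSD 34 lay above every CTR library, the other 4 RSD libraries overlapped the CTR range, and CTR 27 had a single read. Ucp3 averaged 7.35 ± 3.84 in RSD and 4.18 ± 3.09 in CTR (SD, n = 6 each). The log2 fold change was 0.85 (SE 0.38, 95% interval 0.07 to 1.64), with an unadjusted p of 0.0346 and limma adjusted p = 0.546. The unadjusted p for Ucp3 was no longer under 0.05 in 9 of 25 other settings. These were no filter, edgeR, DESeq2, the mitochondrial row (0.67) or a surrogate variable (0.42) in the model, and the fits without CTR 24 (0.69), CTR 27 (0.52), RSD 33 (0.67) or RSD 34 (0.74). Ucp2, the widely expressed form and the neighbour of Ucp3 in the genome, had 202, 251 and 352 normalised CPM in RSD and 191, 234 and 333 in CTR. The log2 fold change of Ucp2 was 0.09 (SE 0.13, 95% interval −0.18 to 0.35), with limma adjusted p = 0.893.

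Both regulators were low. Ppara, the nuclear receptor for fatty acids, had 1 to 11 reads a library in RSD and 1 to 8 in CTR and was not tested. Ppargc1a, the coactivator of mitochondrial genes, had 5.56, 7.92 and 10.2 normalised CPM in RSD and 5.48, 8.301 and 12.8 in CTR. Its log2 fold change was −0.08 (SE 0.24, 95% interval −0.57 to 0.41), and the groups overlapped over most of their range.

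Ketone body use rests on Oxct1, which activates acetoacetate with CoA from succinyl-CoA, and Acat1, which then splits it to acetyl-CoA. Oxct1 had 324, 528 and 604 normalised CPM in RSD and 479, 571 and 619 in CTR (lowest, median and highest). Oxct1 averaged 505 ± 106 in RSD and 565 ± 50.8 in CTR (SD, n = 6 each), and its log2 fold change was −0.19 (SE 0.12, 95% interval −0.43 to 0.06) with a limma adjusted p of 0.703. RSD 33 was the lowest library for Oxct1, and 4 RSD libraries lay within the CTR range. Acat1 had 173, 187 and 194 normalised CPM in RSD and 166, 191 and 233 in CTR, with a log2 fold change of −0.09 (SE 0.10, 95% interval −0.29 to 0.12). Acat1 lay below the CTR mean in 6 of 6 RSD libraries, yet within the CTR range in each.

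Libraries of the same group differed in the level of these genes as a whole. A library's deviation is the median, over the 29 tested genes, of the log2 difference from each gene's own mean over the 12 libraries. It was −0.31 in RSD 33, 0.19 in RSD 34, 0.13 in RSD 35, −0.08 in RSD 38, −0.14 in RSD 39 and 0.05 in RSD 40. In CTR 22 to CTR 27 it was −0.17, 0.11, 0.09, −0.01, 0.13 and 0.02. RSD 33 was low for 24 of the 29 genes and the lowest of the 12 libraries for 11, while RSD 34 was high for 26 and the highest for 6. CTR 22 was low for 21. These counts were not made over all tested genes, so no background stands beside them. Over all tested genes the same median was between 0.01 and 0.02 in every library. The scaling factors were set on those same genes to centre each library, so that value lay near 0 by construction. Other sets of genes were not measured in this way. RSD 33 also had the fewest reads and the highest share of reads in the leading mitochondrial row (25.7%), RSD 34 the most reads, and CTR 22 the highest share of that row among CTR libraries (24.2%); their part was not tested. Within groups, the spread of a tested gene had a median coefficient of variation of 16.2%, against 5.11% from counting reads alone. Counting alone gave 31.8% for Acadsb, 24.5% for Ucp3 and 20.2% for Ppargc1a, the genes with the fewest reads.

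**Figure D3:**
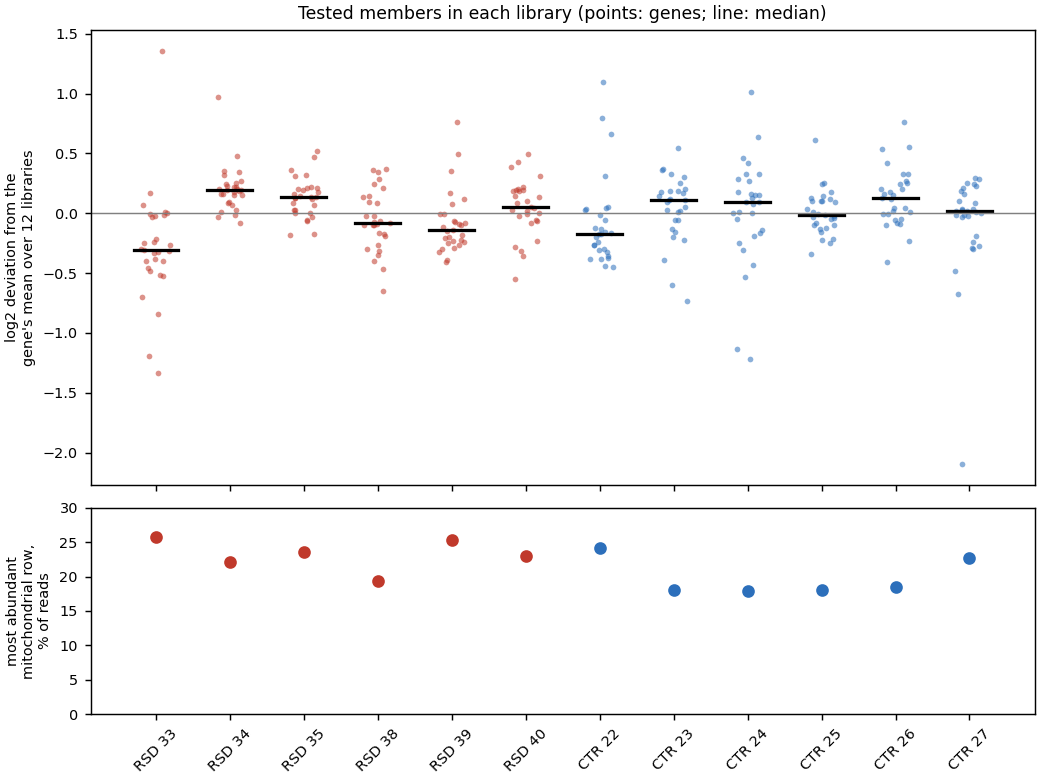
Upper panel: log2 deviation of each of the 29 tested genes from its own mean over the 12 libraries (points; line: median), RSD libraries left and CTR libraries right. Lower panel: share of reads in the most abundant mitochondrial row, in percent. RSD 33 and CTR 22 have the lowest medians of their groups, −0.31 and −0.17, and the highest shares, 25.7% and 24.2%. RSD 39, at 25.3%, has a median of −0.14. RSD 35, at 23.6%, has 0.13, CTR 27, at 22.7%, has 0.02, and RSD 38, at the lowest RSD share (19.4%), has −0.08. A relation between the panels was not tested.

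A total of 4 pairs of genes whose products work together were compared across the 12 libraries, which share their scaling. For Etfa and Etfdh, Pearson's r was 0.73 (permutation p = 0.00716, adjusted 0.0143 over 4 pairs) and Spearman's rho 0.76 (permutation p = 0.0058). Within groups r was 0.69 in RSD and 0.97 in CTR (exact permutation p = 0.0361 and 0.00833, adjusted 0.0722 and 0.0333 over 4 pairs, n = 6 each). Without RSD 33 and CTR 22, the libraries farthest from the median of Etfa, r was 0.50 (permutation p = 0.142) and rho 0.59 (permutation p = 0.0816), over 10 libraries with a narrower range of Etfa. For Cpt1b and Cpt2, r was 0.75 (permutation p = 0.00612, adjusted 0.0143) and rho 0.74 (permutation p = 0.00804). Within RSD r was 0.95 and within CTR 0.35 (exact permutation p = 0.0194 and 0.508, adjusted 0.0722 and 0.678, n = 6 each). Without RSD 33 and CTR 24 r was 0.64 (permutation p = 0.045, adjusted 0.18). For Hadha and Hadhb, read from either side of the stretch printed above, r was −0.00 (permutation p = 0.994) and rho −0.14 (permutation p = 0.666), with r of 0.49 within RSD and −0.59 within CTR (exact permutation p = 0.325 and 0.211, n = 6 each). Without CTR 25 and RSD 35 it was −0.15. For Etfa and Etfb r was −0.18 (permutation p = 0.597) and rho −0.23 (permutation p = 0.47).

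**Figure D4:**
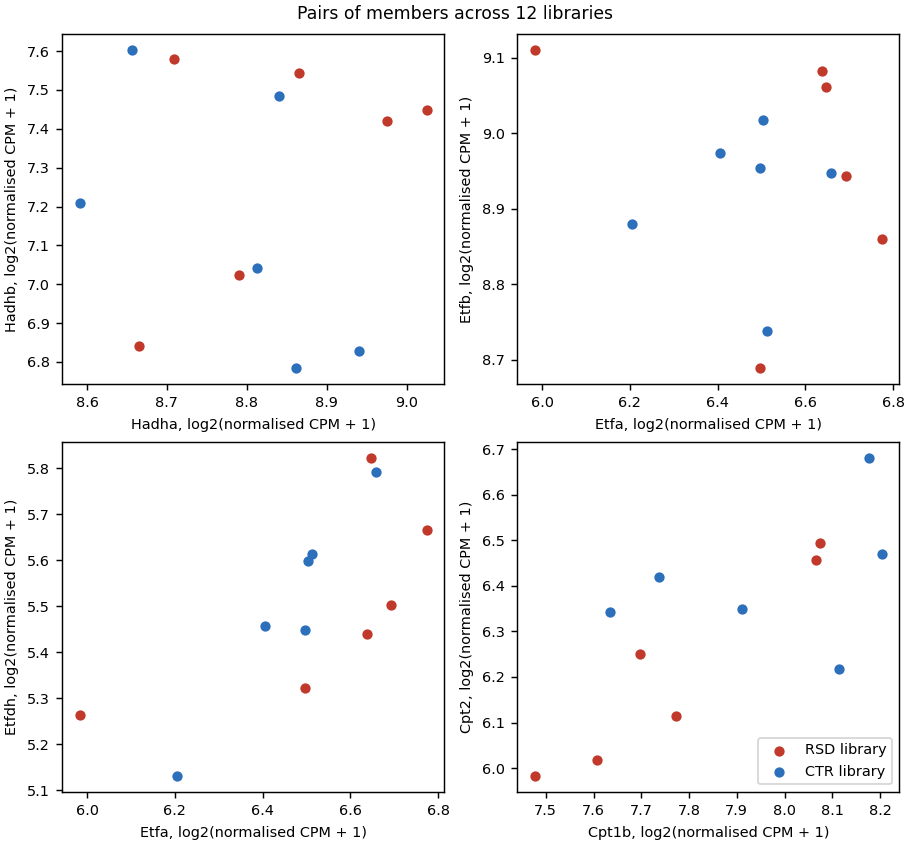
Each panel plots log2(normalised CPM + 1) of one gene against another across the 12 libraries (RSD and CTR in separate colours, 1 point a library). Etfa with Etfdh and Cpt1b with Cpt2 slope upwards (r = 0.73 and 0.75), and Hadha with Hadhb and Etfa with Etfb do not (r = −0.00 and −0.18).

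Of 74 other genes of the pathway, 72 had a row, 52 were tested and 0 passed limma's adjusted p of 0.05. At unadjusted p under 0.05, 4 were higher and 5 lower (17.3% of the 52, against 8.36% of all tested genes). By list, 2 were higher and 2 lower of 9 PPAR targets and fuel switch genes, 0 higher and 2 lower of 17 further beta-oxidation genes, 1 higher and 1 lower of 8 peroxisomal genes, 1 higher and 0 lower of 14 regulators, and 0 of 4 ketone body genes. The median log2 fold change of the 52 was 0.02. The higher ones were Plin5, Plin2, Abcd3 and Ppargc1b. Plin5, a lipid droplet protein of oxidative tissue, had 63.3, 86.1, 82.7, 69.4, 76.4 and 73.7 normalised CPM in RSD 33, 34, 35, 38, 39 and 40, against 51.4, 59.95, 53.3, 53.3, 55.1 and 65.4 in CTR 22 to CTR 27. For Plin5, 5 of 6 RSD libraries lay above the highest CTR library, and RSD 33 lay inside the CTR range. Its means were 75.3 ± 8.42 in RSD and 56.4 ± 5.29 in CTR (SD, n = 6 each), and its log2 fold change was 0.41 (SE 0.12, 95% interval 0.17 to 0.65), with limma adjusted p = 0.365. Plin2, another lipid droplet protein, averaged 27.2 ± 4.01 normalised CPM in RSD and 20.1 ± 3.64 in CTR (log2 fold change 0.42). Abcd3, a peroxisomal transporter of fatty acyl-CoA, averaged 86.9 ± 14.04 in RSD and 69.3 ± 9.57 in CTR (log2 fold change 0.32). Ppargc1b, a coactivator related to Ppargc1a, averaged 44.5 ± 8.02 in RSD and 34.2 ± 6.09 in CTR (log2 fold change 0.37).

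The lower ones were Lpl, Fabp3, Acss1, Mcee and Acot8. Lpl, the lipoprotein lipase that frees fatty acids at the vessel wall, averaged 1447 ± 130.2 normalised CPM in RSD and 1717 ± 177 in CTR (SD, n = 6 each; log2 fold change −0.25), and 4 RSD libraries were below all CTR libraries. Fabp3, the heart fatty acid binding protein, averaged 1085 ± 203 in RSD and 1336 ± 251 in CTR (log2 fold change −0.30). Acss1, the mitochondrial acetyl-CoA synthetase, averaged 93.9 ± 18.2 in RSD and 122 ± 22.7 in CTR (log2 fold change −0.38); without CTR 22 and RSD 33 it passed the adjusted threshold (limma adjusted p = 0.0491), 1 of 37 that did among 7509 genes in that fit. Mcee, an enzyme of propionyl-CoA breakdown, averaged 9.48 ± 2.97 in RSD and 13.8 ± 3.78 in CTR (log2 fold change −0.49). The limma adjusted p of these 8 genes ran from 0.365 (Plin5) to 0.569 (Mcee). Acot8, a peroxisomal thioesterase, had 0 to 19 reads a library and averaged 3.13 ± 1.77 normalised CPM in RSD and 5.11 ± 0.978 in CTR. Bdh1, which interconverts both main ketone bodies, averaged 5.995 ± 1.25 normalised CPM in RSD and 6.34 ± 2.48 in CTR. Its log2 fold change was −0.02. Pdk4, the kinase that turns off glucose oxidation when fatty acids are burned, had 3 to 30 reads a library, 1.51 to 4.91 normalised CPM in RSD and 1.22 to 9.29 in CTR, and was not tested. Echs1, the enoyl-CoA hydratase of short chains, is listed at 0 in every library, as are Pex5, Fgf21 and Esrrb. Whether these genes were not expressed or their reads were not counted was not tested.

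**Figure D5:**
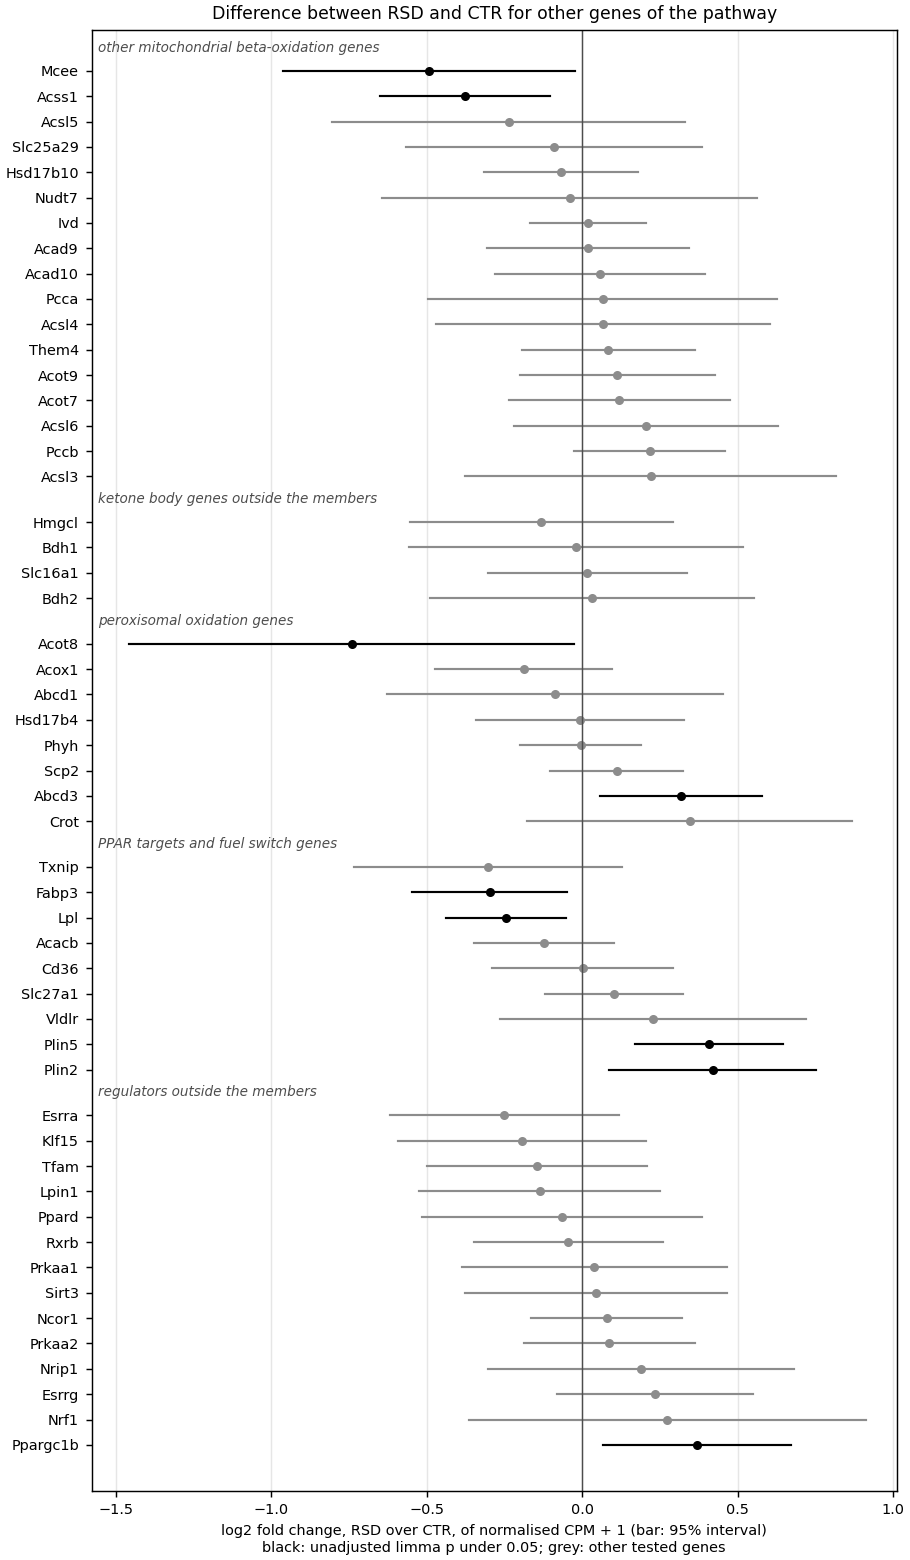
Log2 fold change, RSD over CTR, of the 52 other tested genes of the pathway with its 95% interval from limma, grouped by role. The 9 genes in black have an unadjusted p under 0.05, with 4 above 0 and 5 below, and 0 pass after adjustment.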

How the data were processed

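The authors deposited 1 table with an Ensembl gene ID, a symbol and a value in CPM for each of 12 libraries, per the file headers. Per the submitters' processing notes the build was rn6 and the tools included STAR 2.6.0a, HTSeq 0.9.1, bcl2fastq and DESeq2, with no roles stated; no annotation release is named in the sources used here. Low values were whole multiples of 1 step, which gave back whole reads (99.8% to 100% of values in a library within 0.1 read). Groups came from the labels; they share no replicate numbers, and the labels name no batch. No pair of libraries held identical values. The p-values for RSD against CTR set the group difference against the spread between rats.

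CPM were divided by TMM factors and log2(value + 1) was tested with limma (two-sided, intensity trend, Benjamini-Hochberg adjustment over all 7511 genes that filterByExpr kept at a minimum count of 10). Permutations over libraries were exact for group differences and drew 1e+05 resamples for correlations over 10 or 12 libraries. Intervals are at 95%. Alternatives were other scaling factors, pseudocounts of 0.5 and 3, other filters, edgeR, DESeq2, limma-voom, covariates and left-out libraries. The reported limma fit was also run on simulated data, and the alternatives were not. Software was limma 3.58.1 and sva 3.50.0, with edgeR 4.0.16 and DESeq2 1.42.0, under R 4.3.3.

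Genes given in full are the 8 tested ones with the smallest p and a fixed set of regulators, entry and ketone enzymes; of the other pathway genes, the 8 with the smallest p plus Pdk4 and Bdh1; 1 further gene of this rule is not reported here. Acot8 and the genes listed at 0 were added after their values were seen, as was the share of Cpt1a in the reads of both forms. Members and lists were chosen with earlier results of these data known. Promoter sequences are RefSeq's on GRCr8, matched by symbol; no coordinates of the table's own build are given.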

Additional observations from a re-analysis of the deposited data

Results flagged for a closer look

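In 5 of 84 groups of 6 libraries, 1 library stood far from the others: its gap to the nearest library, divided by the whole range of the group, exceeded Dixon's critical value for 6 values at 95%. Chance gives about 1 in 20 groups, or 4.2 here. The share was 1 for Acot1 in RSD, where RSD 38 had 0.704 normalised CPM and the others 0. In CTR it was 0.724 for Slc22a5, where CTR 25 had 4.87 and the next 2.40 normalised CPM. CTR 22 gave the other three: it was lowest for Acaa2 (share 0.657, 183.9 against 257.4 normalised CPM) and for Acot13 (0.63, 87.9 against 127 normalised CPM), and highest for Ppargc1b (0.638, 45.8 against 34.7 normalised CPM).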

How the results depend on the processing

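Under 26 other settings, 12 of which leave out 1 library, 0 of the genes passed limma's, edgeR's or DESeq2's adjusted p of 0.05. The lowest adjusted p was 0.0971 by limma (Decr1 without CTR 22). In that fit 41 of all 7645 tested genes passed the adjusted threshold, against 2 of 7511 in the reported fit. The count at unadjusted p under 0.05, 3 in the reported fit, was 1 with DESeq2 (8.08% of all tested genes) and 1 with the most abundant mitochondrial row as covariate (Hadhb, higher; 3.675% of all). The count was 4 with 1 surrogate variable (Hadhb, Etfa, Ucp2 and Slc25a20, each higher), beside 4.886% of all, and Decr1, Acot2 and Ucp3 were not among them. It was 6 without CTR 22 and RSD 33 (12.1% of all). When 1 library was left out it was 1 (without CTR 24, 5.88% of all) to 6 (without CTR 22, 12.95% of all). Without CTR 22 and RSD 33, 1 pathway gene (Acss1) passed the adjusted threshold, of 37 among all 7509 genes tested there. Of 750 values of single genes, 706 kept their sign and 44, in 14 genes, turned; 15 genes turned under none. With the covariate the log2 fold change was 0.015 for Acadl, −0.037 for Hadh, 0.024 for Eci2, 0.086 for Etfdh, 0.099 for Acot13 and 0.147 for Ppargc1a. With 1 surrogate variable it was 0.010 for Acsl1, 0.029 for Cpt1b, 0.017 for Acadl, −0.00814 for Etfb, 0.127 for Etfdh, 0.132 for Mlycd, 0.1003 for Acot13 and 0.07296 for Ppargc1a. With CPM as deposited it was −0.020 for Cpt1a, −0.021 for Acadm, −0.035 for Eci1 and −0.001855 for Etfb. Eci1 was −0.00421 with no filter and −0.0011 with edgeR, and Etfdh 0.00283 with upper-quartile factors, 0.0085 with a minimum of 50 reads and 0.00211 with DESeq2. With 1 library left out the range was −0.065 to 0.085 for Cpt1a, −0.023 to 0.099 for Acadm, −0.0532 to 0.060 for Eci1, −0.078 to 0.054 for Etfdh, −0.0062 to 0.176 for Ucp2, −0.184 to 0.036 for Ppargc1a and −0.175 to 0.114 for Bdh1. Among larger values that kept their sign it was −0.246 to −0.119 for Cpt1b, −0.324 to −0.148 for Acaa2, 0.104 to 0.234 for Acads, 0.013 to 0.507 for Acadsb, 0.0762 to 0.244 for Hadhb, −0.245 to −0.0572 for Eci2 and −0.245 to −0.0644 for Oxct1. Without the 2 libraries farthest from the median, r was 0.18 for Etfa with Etfb, 0.50 for Etfa with Etfdh and 0.64 for Cpt1b with Cpt2. The cause of these shifts was not tested. No paired analysis was possible because the groups share no replicate numbers. Slc22a5, Crat, Acot1 and Ppara did not pass the filter on low values and have no fold change here. Why their reads were few was not tested.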
